A study of Mus musculus with 18 samples.

Results

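Genomic imprinting was examined through 10 listed mouse genes, H19, Meg3, Peg3, Igf2, Igf2r, Mest, Peg10, Grb10, Plagl1 and Zdbf2, in embryonic stem cells (ESCs) and in the epiblast-like cells (EpiLCs) derived from them. The members were picked by gene name, and their rows were taken from the batch-adjusted count tables of both cell types. Of the 10 genes, 9 were present in both tables, which hold 13104 genes for ESCs and 13717 for EpiLCs, and Igf2 was in neither. The cells carried the Blimp1::mVenus and Stella::ECFP reporters, and were grown as ESCs in 2i+LIF medium and as EpiLCs with activin A and bFGF. In each cell type, 3 cultures were exposed to 100 nM Δ9-tetrahydrocannabinol (Δ9-THC), the psychoactive compound of cannabis, and 3 were mock-treated with the vehicle, ethanol, so the RNA-seq data held 12 libraries in 4 groups. The study describes the exposure as continuous over both stages, so that the exposed EpiLCs were derived from ESCs that had been exposed too. The methods name a female clone, H18, and a male clone, R8, of this single reporter line, and the sample labels do not give the clone of each library. In its account of proliferation, the paper says that female ESCs gave the data shown and that male ESCs were tested as well. Its RNA-seq methods do not name the clone. The libraries are labelled as biological replicates, and p-values measure the spread between these libraries. The tests treat the libraries of a table as independent, which they were not, as described below. P-values and standard errors can therefore be too small, and intervals too narrow. As bulk RNA was measured, fewer cells expressing a gene and less RNA per cell cannot be told apart.

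An imprinted gene is transcribed mainly from the copy inherited from a given parent. The choice is set by DNA methylation laid down in the egg or the sperm at imprinting control regions, which are protected from the wave of demethylation in the early embryo by the zinc-finger protein ZFP57 and its partner TRIM28. In the germline the marks are erased and reset, and pluripotent cells in culture can lose imprints. Total RNA counts as used here carry no information on which parental copy was transcribed. Among the members, H19, Meg3, Igf2r and Grb10 are known mainly as maternally expressed, and Igf2, Peg3, Mest, Peg10, Plagl1 and Zdbf2 as paternally expressed.

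To show what surrounds the starts of members on which the results turn, promoter windows of 300 bases were read from RefSeq (build GRCm38.p6), from 250 bases before to 50 after a transcription start. A window was found for 8 of the 10 members, 16 windows in all, and there was none in the table for H19 and Peg10. Capitals mark the hexamer TGCCGC, the core of the motif known to be bound by ZFP57 when methylated, or its reverse complement GCGGCA. The hexamer was present on either strand in 7 of the 16 windows, and in 11.6% of all 32851 windows of the same length. The 7 windows came from 6 of the 8 members. Windows of the same gene can overlap and are not independent, as for the Mest windows that start at 30737800 and 30737803. The hexamer itself holds a CpG, and the share over all windows is not matched for CpG content. The 2 shares therefore give no measure of enrichment. The 4 windows below were chosen because they hold the hexamer and belong to genes whose levels are described at length, and they are written 5′ to 3′ on the plus strand. Zdbf2, chr1:63200108-63200407, held 3 copies and 15 CpG dinucleotides, and lies upstream of the gene's start in GENCODE M21, at a start that RefSeq lists for the gene. The Zdbf2 window that spans the GENCODE start, chr1:63273019-63273318, held 0 copies and 38 CpGs. Mest, chr6:30737800-30738099, held 2 copies and 17 CpGs and lies within the annotated gene. Plagl1, chr10:13090582-13090881, held 1 copy and 26 CpGs and lies within the annotated gene. Meg3, chr12:109540746-109541045, held 1 copy and 13 CpGs and spans the annotated start. The Mest window that starts at 30733256 and the Meg3 window that starts at 109545148 held 0 copies. The median over all windows was 7 CpGs.
Zdbf2: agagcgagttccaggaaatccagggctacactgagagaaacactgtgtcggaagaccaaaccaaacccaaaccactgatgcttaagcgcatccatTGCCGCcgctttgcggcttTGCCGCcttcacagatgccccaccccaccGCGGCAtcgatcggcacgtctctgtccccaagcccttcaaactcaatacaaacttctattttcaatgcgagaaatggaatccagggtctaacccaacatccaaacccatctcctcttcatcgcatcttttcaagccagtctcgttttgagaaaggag
Mest: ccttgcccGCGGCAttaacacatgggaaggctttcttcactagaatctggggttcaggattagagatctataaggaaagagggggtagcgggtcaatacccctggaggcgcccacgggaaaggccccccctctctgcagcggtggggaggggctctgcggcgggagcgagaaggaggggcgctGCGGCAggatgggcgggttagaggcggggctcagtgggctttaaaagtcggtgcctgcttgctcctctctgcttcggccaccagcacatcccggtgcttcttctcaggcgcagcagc
Plagl1: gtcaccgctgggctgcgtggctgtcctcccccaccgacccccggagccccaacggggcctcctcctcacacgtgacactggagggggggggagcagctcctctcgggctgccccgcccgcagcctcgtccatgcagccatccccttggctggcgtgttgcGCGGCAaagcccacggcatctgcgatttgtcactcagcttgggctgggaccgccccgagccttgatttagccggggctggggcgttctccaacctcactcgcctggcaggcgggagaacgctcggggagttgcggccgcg
Meg3: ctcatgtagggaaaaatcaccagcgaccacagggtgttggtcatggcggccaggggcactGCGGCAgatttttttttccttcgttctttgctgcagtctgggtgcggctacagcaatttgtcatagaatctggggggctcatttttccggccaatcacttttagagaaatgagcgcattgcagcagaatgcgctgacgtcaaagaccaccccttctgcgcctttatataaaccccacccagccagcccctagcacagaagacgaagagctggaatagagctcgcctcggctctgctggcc
The letters describe these windows only. Neither methylation nor binding was measured in these samples.

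Library totals lay between 23427551 and 32096698 adjusted counts. The cell type labels were checked against marker genes. The summed level of 8 naive pluripotency markers was 4286 to 4650 counts per 1000000 (CPM) in ESCs and 309 to 365 in EpiLCs, and that of the epiblast-like markers was 154 to 174 CPM in ESCs (5 of 6 genes measured) and 1731 to 2112 in EpiLCs (6 of 6). Of the markers of other cells, 1 of 6 for extraembryonic endoderm, 3 of 6 for trophoblast, 2 of 5 for mesoderm and 2 of 7 for feeder fibroblasts were measured in ESCs, with summed levels of 2.38 to 3.39, 20.5 to 30.1, 2.44 to 3.10 and 5.65 to 7.39 CPM. In EpiLCs 2, 3, 2 and 4 of these markers were measured, and their sums were 7.39 to 9.88, 77.9 to 113, 2.33 to 3.46 and 13.8 to 19.4 CPM. Of these markers, Gata6, Sox17, Cdx2, Elf5 and Mesp1 were in neither table. Gata4, Eomes, T and Kdr were measured in ESCs, and Gata4, Dab2, Eomes, Mixl1 and Tbx6 in EpiLCs. Eomes averaged 10.2 CPM in the vehicle ESCs and 13.7 in the exposed ESCs, the highest mean of the trophoblast markers there. The trophoblast sum in EpiLCs was mostly keratin 18, a gene that other epithelial cells use too. These ranges cover both exposures. With Δ9-THC, 8 of 8 naive markers had a log2(fold-change) above 0 in EpiLCs, beside 50.7% of all genes, and 2 of 8 in ESCs, beside 51.1%. By edgeR's test 0 passed in EpiLCs, beside 0.0% of all genes, and 0 in ESCs, beside 6.91%. DESeq2 called 1 naive marker in ESCs, Klf2, as lower, beside 5.79% of all genes, and 0 in EpiLCs, beside 0.634%. Of 5 epiblast-like markers in ESCs, 2 were above 0 and 3 below, and 1 passed as lower, beside 3.55% of all genes. It was Pou3f1, at -0.96 (adjusted p = 0.0265 by edgeR). Pou3f1 did not pass with any 1 library left out, where 0 to 1 genes of the whole table did. In each cell type the same-numbered vehicle and Δ9-THC libraries deviated from their group means in opposite directions, so the 6 libraries of a table were not independent of each other. The cause was not tested.

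Across the 2 cell types, the imprinted genes did not move as a block. H19, Peg10, Meg3 and Mest were at a higher level in EpiLCs than in ESCs, Plagl1 was at a far lower level, and Grb10, Zdbf2, Peg3 and Igf2r differed by less than a doubling with the vehicle. The tables of the cell types had been adjusted separately, so levels are set side by side without a test. With the vehicle, 5 of the 9 members differed by more than 1 on the log2 scale, beside 21.7% of the 12410 genes present in both tables, and with Δ9-THC 6 of the 9 did, beside 20.8%. With the vehicle 4 were above 1, beside 11.1% of genes, and 1 was under -1, beside 10.6%. With Δ9-THC 5 were above 1, beside 11.2%, and 1 was under -1, beside 9.56%.

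**Figure D1:**
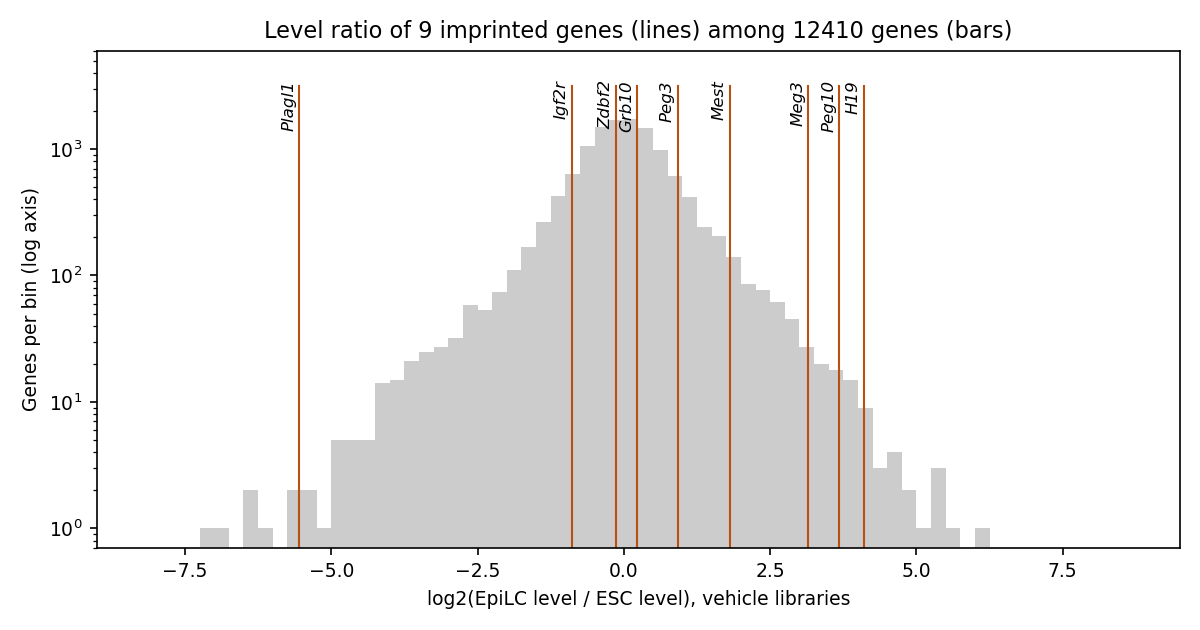
Number of genes (log axis) by the log2 ratio of their mean level in the 3 vehicle EpiLC libraries to that in the 3 vehicle ESC libraries; orange lines mark the 9 imprinted genes. Plagl1 lies at -5.55, and Meg3, Peg10 and H19 lie at 3.15, 3.68 and 4.10, while Zdbf2 (-0.13) and Grb10 (0.23) lie near the middle of all genes.

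H19 (ENSMUSG00000000031, chr7:142575529-142578143, minus strand) encodes a maternally expressed long non-coding RNA that is the host of a microRNA and shares its control region with Igf2. With the vehicle it was at 0.914, 1.75 and 1.94 CPM in the 3 ESC libraries, from 30, 48 and 55 counts, and at 27.3, 24.1 and 27.5 CPM in the 3 EpiLC libraries. The level in EpiLCs was 17.1-fold that in ESCs with the vehicle (log2 ratio 4.10) and 11.5-fold with Δ9-THC (3.52). All 6 EpiLC libraries were above all 6 ESC libraries, and 0.419% of genes had a ratio of larger size with the vehicle. H19 was the lowest member in ESCs. Igf2, the growth factor gene next to it, could not be described. In the GENCODE M21 annotation 64.5% of the exonic bases of Igf2 are shared with another gene, Gm49394, which was in neither table either, and reads that fall on more than 1 gene are left out by the counting mode that was used. The part of this in the absence of Igf2 was not tested. The release of the annotation behind the tables is not given in the sources used here.

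Meg3 (ENSMUSG00000021268, chr12:109541001-109571726, plus strand) is the first of the maternally expressed non-coding RNAs of the Dlk1-Dio3 domain, whose silencing is a known mark of aberrant pluripotent clones. It was at 40.6, 34.6 and 46.8 CPM in the vehicle ESCs and at 451, 227 and 408 CPM in the vehicle EpiLCs. Meg3 was detected in all 12 libraries, and its level in EpiLCs was 8.89-fold higher with the vehicle and 10.3-fold with Δ9-THC. Rian, a host of small nucleolar RNAs read in the same direction in this domain, had a mean of 121 ± 2.49 CPM (SD, n = 3) in the vehicle ESCs and 458 ± 59.8 in the vehicle EpiLCs. Mirg, a microRNA host further along, had means of 4.97 ± 0.515 and 23.7 ± 5.88 CPM. All 3 maternally expressed transcripts of the domain thus had a higher level in EpiLCs, with log2 ratios of 3.15, 1.92 and 2.25 with the vehicle. Of the paternally expressed protein genes of the domain, Dlk1 (11.02 ± 0.529 CPM) and Rtl1 (5.94 ± 1.03 CPM) were in the EpiLC table only, and Dio3 (2.34 ± 0.730 CPM) was in the ESC table only.

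Peg10 (ENSMUSG00000092035, chr6:4747306-4760517, plus strand) is a retrotransposon-derived gene that is needed for the placenta. In vehicle ESCs it was at 36.1, 44.4 and 39.6 CPM and in vehicle EpiLCs at 442, 531 and 571 CPM, a 12.8-fold difference that had no overlap between the libraries of the cell types. Its neighbour Sgce, a sarcoglycan gene that is read from the same promoter region in the other direction, averaged 2.27 ± 0.284 CPM over the vehicle ESCs and 11.7 ± 2.66 over the vehicle EpiLCs (SD, n = 3), 5.17-fold higher. The maternally expressed genes of this cluster, Ppp1r9a and Pon2, had levels 2.56-fold and 4.92-fold higher in the vehicle EpiLCs.

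Mest (ENSMUSG00000051855, chr6:30723547-30748465, plus strand), a hydrolase-like gene of the mesoderm, was at 22.8, 26.1 and 27.3 CPM in vehicle ESCs and at 92.9, 107 and 67.7 CPM in vehicle EpiLCs, 3.51-fold higher. The 2 ranges did not overlap. Its neighbour Copg2, which covers part of the 23.1% of the exonic bases of Mest shared with other genes, was at 102 ± 3.10 CPM in vehicle ESCs and 66.2 ± 8.74 in vehicle EpiLCs. Counting without strand cannot tell reads of such overlapping genes apart where they are kept.

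Peg3 (ENSMUSG00000002265, chr7:6703892-6730431, minus strand), a zinc-finger gene linked to maternal behaviour and cell survival, was at 162, 173 and 158 CPM in vehicle ESCs and at 318, 328 and 289.9 CPM in vehicle EpiLCs, 1.90-fold higher without overlap. Usp29, which shares its promoter region, was at 5.06 ± 0.173 and 10.5 ± 0.913 CPM in the 2 cell types, 2.09-fold higher in EpiLCs.

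Plagl1 (ENSMUSG00000019817, chr10:13060504-13131694, plus strand), a zinc-finger factor that slows the cell cycle and regulates other imprinted genes, went the other way. With the vehicle it was at 118, 116 and 84.5 CPM in ESCs and at 1.92, 2.70 and 2.17 CPM in EpiLCs. The level in EpiLCs was 46.9-fold lower with the vehicle and 53.7-fold lower with Δ9-THC, and 0.0564% and 0.0645% of genes had a ratio of larger size. The 8 naive markers had log2 ratios of -6.98 to -2.44 with the vehicle, with a median of -5.49, beside -5.55 for Plagl1.

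Igf2r (ENSMUSG00000023830, chr17:12682406-12769664, minus strand), the receptor that clears IGF2 from the cell surface, was at 185, 187 and 162 CPM in vehicle ESCs and at 89.2, 107 and 91.5 CPM in vehicle EpiLCs, 1.85-fold lower. Its antisense RNA Airn and the neighbours Slc22a2 and Slc22a3 were in neither table. Grb10 (ENSMUSG00000020176, chr11:11930508-12038683, minus strand), an adaptor that dampens insulin and growth factor signalling, was at 95.9, 102 and 97.4 CPM in vehicle ESCs and 110.2, 134 and 101 CPM in vehicle EpiLCs. These ranges overlapped, with a log2 ratio of 0.23. Ddc, next to Grb10, was at 20.6 ± 1.02 and 7.67 ± 0.669 CPM. Zdbf2 (ENSMUSG00000027520, chr1:63273265-63314576, plus strand), a zinc-finger gene known for effects on postnatal growth, was at 127, 127 and 109 CPM in vehicle ESCs and at 104, 132 and 97.0 CPM in vehicle EpiLCs. The ranges overlapped, with a log2 ratio of -0.13. Gpr1, in the same cluster, was in the EpiLC table only, at 1.82 ± 0.597 CPM.

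**Figure D2:**
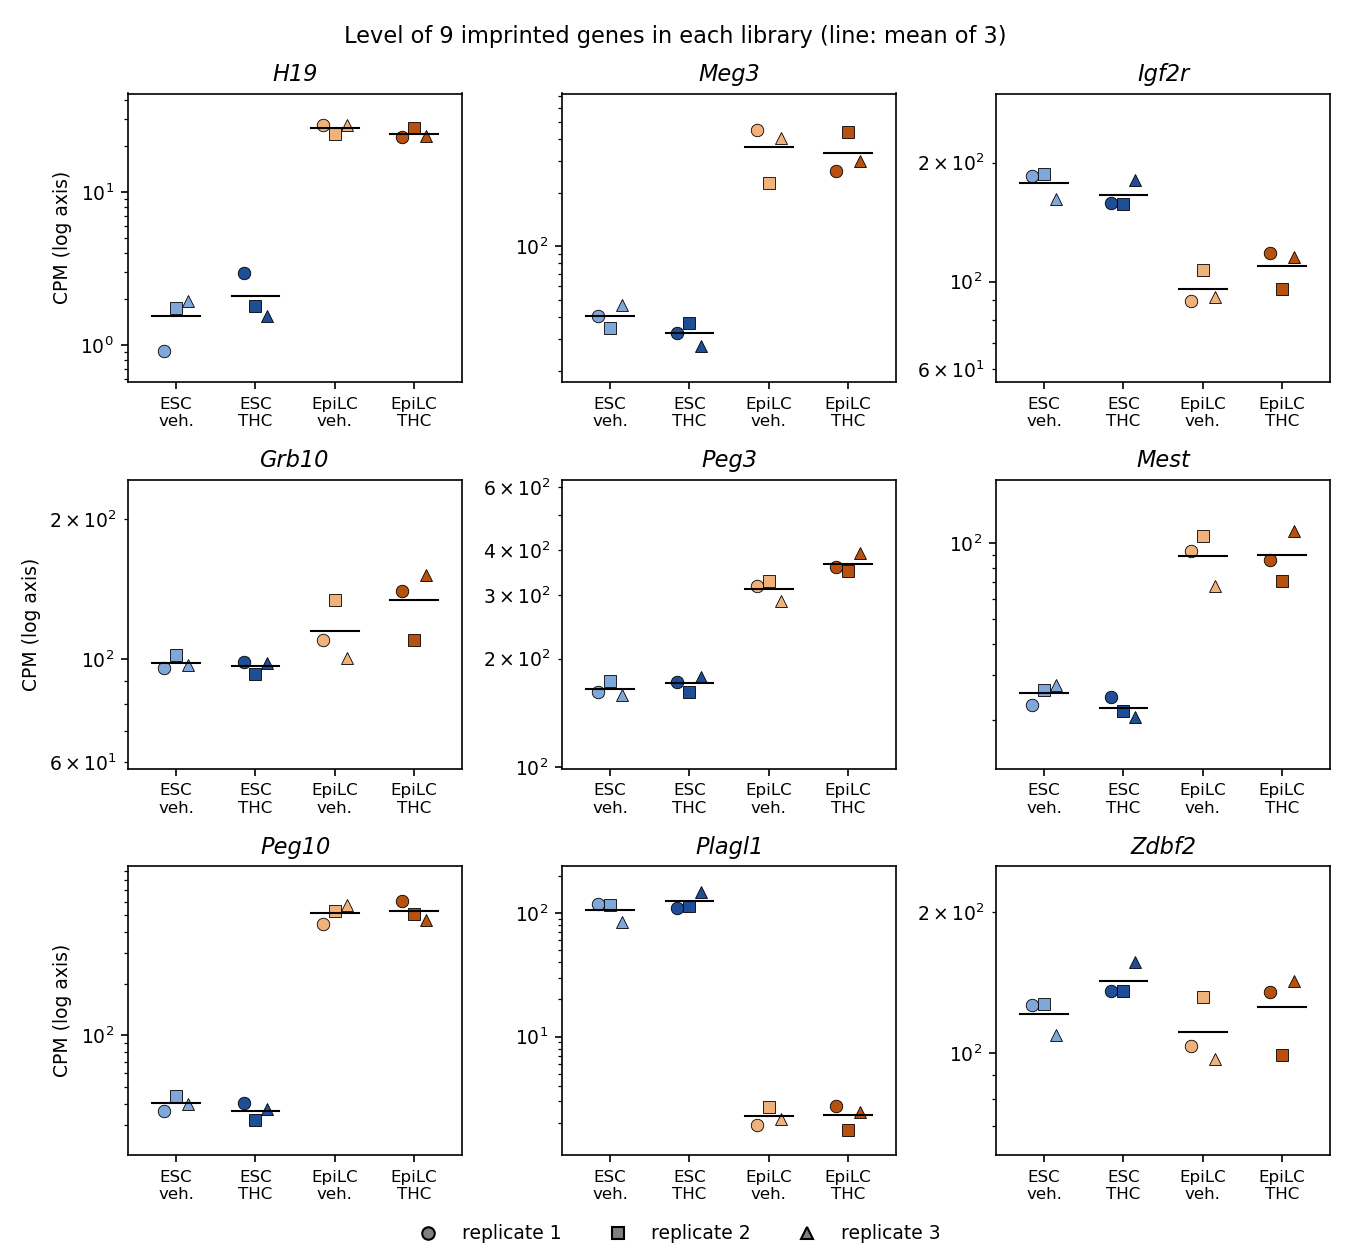
Level of each of the 9 imprinted genes (CPM, log axis) in the 3 libraries of each group, blue for ESCs and orange for EpiLCs, with the darker shade for Δ9-THC, symbols for the replicate number and lines for group means. The cell types are apart for 7 genes, the clearest being H19 (1.54 and 26.3 CPM, vehicle means) and Plagl1 (106 and 2.26 CPM), while within a cell type the exposures overlap except for Zdbf2 in ESCs and Peg3 in EpiLCs.

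Levels were compared between genes only per length, as CPM per kilobase of exon. In vehicle ESCs the order of the means was Igf2r (19.1), Plagl1 (13.6), Peg3 (12.3), Grb10 (10.8), Zdbf2 (9.55), Mest (6.44), Peg10 (6.01), Meg3 (2.25) and H19 (0.624 CPM per kilobase). Between neighbours in this order, the libraries of Plagl1 and Peg3 overlapped, as did those of Mest and Peg10, and the others did not. In vehicle EpiLCs the order was Peg10 (77.2), Peg3 (23.4), Mest (22.6), Meg3 (20.0), Grb10 (12.7), H19 (10.7), Igf2r (10.3), Zdbf2 (8.75) and Plagl1 (0.290 CPM per kilobase). Peg10 stood above and Plagl1 below all other members without overlap, and the neighbours from Peg3 to Zdbf2 overlapped. With Δ9-THC the highest and the lowest members of each cell type were the same, namely Igf2r (17.8) and H19 (0.852) in ESCs and Peg10 (79.0) and Plagl1 (0.297 CPM per kilobase) in EpiLCs. With Δ9-THC, Igf2r and Plagl1 overlapped in ESCs, and Zdbf2 took the place above Grb10.

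The spread between replicates also differed among the members. In ESCs the coefficient of variation of H19 estimated by edgeR was 0.262, and 0.336% of genes had a larger one. The next were Plagl1 (0.139) and Meg3 (0.119), and the smallest among the members was that of Grb10 (0.0351). In EpiLCs Meg3 had the largest (0.252, with 1.95% of genes above it), followed by Mest (0.188), and Peg3 the smallest (0.0807). Counting error was largest for H19 in ESCs, with 30 to 70 counts, and for Plagl1 in EpiLCs, with 45 to 86 counts.

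**Figure D3:**
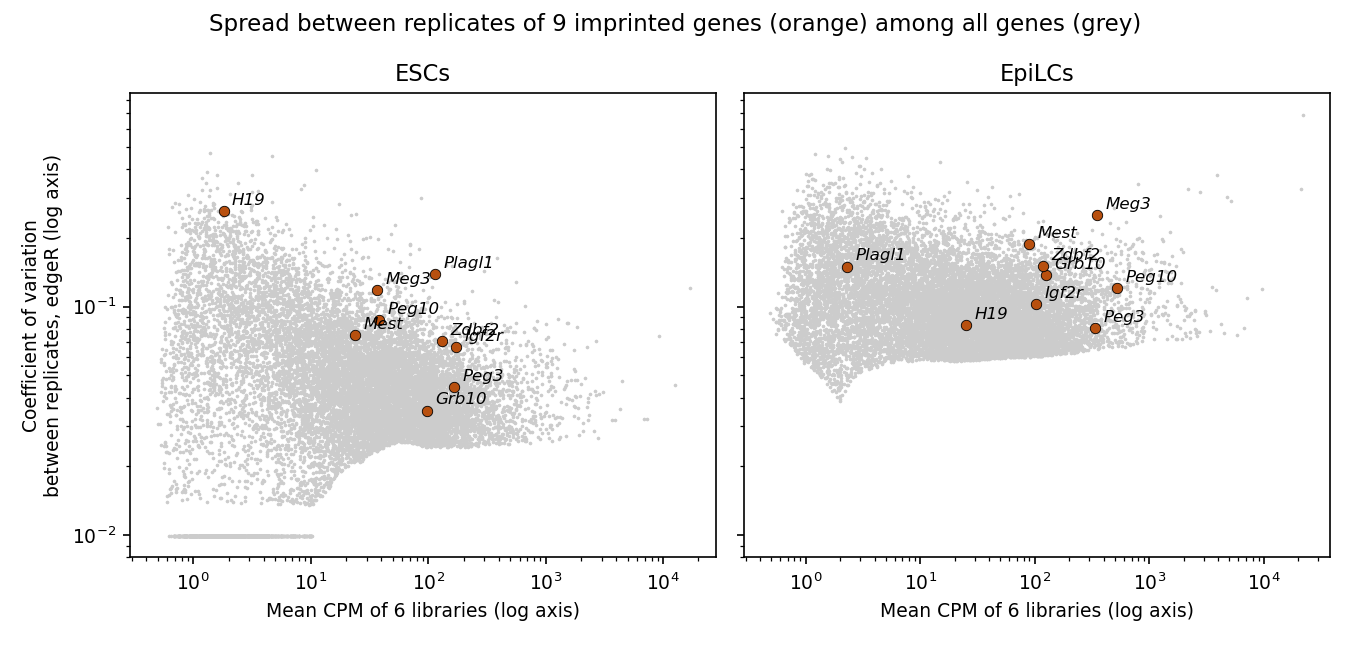
Coefficient of variation between replicates estimated by edgeR (log axis) against the mean level of the 6 libraries (CPM, log axis), with all genes in grey and the 9 imprinted genes in orange. H19 in ESCs (0.262) and Meg3 in EpiLCs (0.252) lie near the top, and Meg3 in EpiLCs does so at a high level.

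To ask whether exposure to Δ9-THC went with a difference in imprinted gene levels, the 3 exposed and the 3 vehicle libraries were compared within each cell type. No member passed the test in either cell type. In ESCs 0 of the 9 members had an adjusted p of at most 0.05 (edgeR's quasi-likelihood test, Benjamini-Hochberg adjustment over 13104 genes), beside 6.91% of all genes, and 1 had an unadjusted p under 0.05, beside 28.7%. In EpiLCs the counts were again 0 of 9, beside 0.0% of 13717 genes, and 1 of 9, beside 15.1%. DESeq2 called 1 member in ESCs, Zdbf2, beside 5.79% of genes, and 0 in EpiLCs, beside 0.634%. The exposed and the vehicle libraries did not overlap for 1 member in ESCs, beside 32.6% of genes, and for 1 member in EpiLCs, beside 21.8%. The median log2(fold-change) of the members was -0.026 in ESCs (4 above 0 and 5 below, where 51.1% of all genes were above 0) and 0.034 in EpiLCs (7 above 0 and 2 below, where 50.7% of all genes were above 0). The medians over all genes were 0.0041 and 0.0030.

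**Figure D4:**
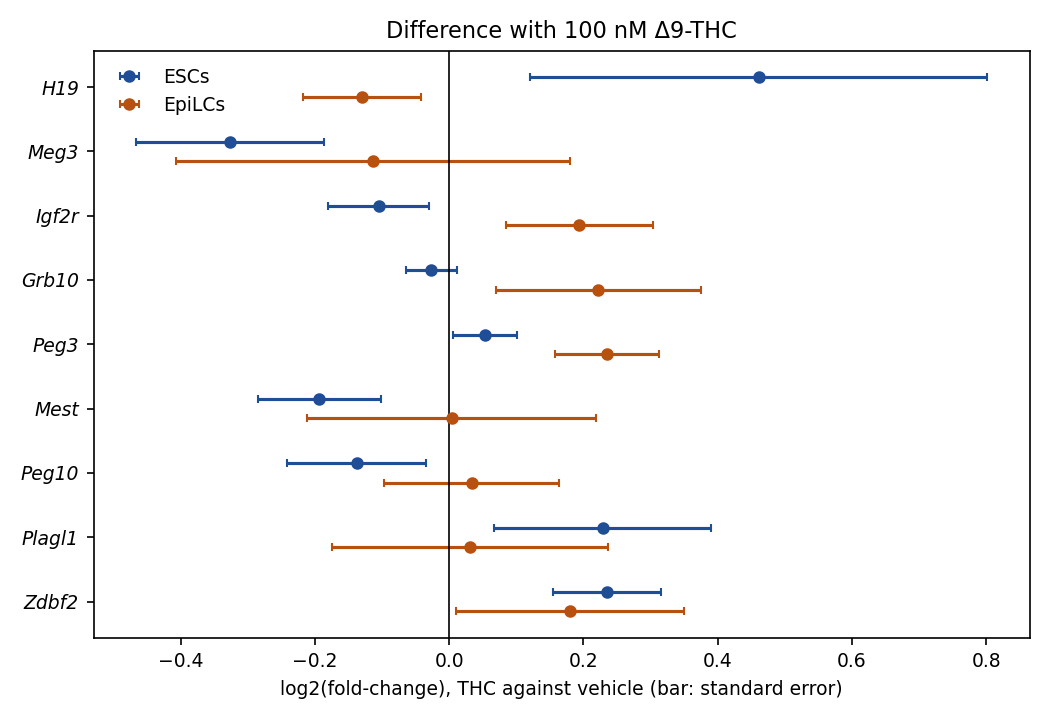
Log2(fold-change) of the 9 imprinted genes with Δ9-THC against the vehicle in ESCs (blue) and EpiLCs (orange), with standard errors, 3 libraries in each group. Values run from -0.33 (Meg3) to 0.46 (H19) in ESCs and from -0.13 (H19) to 0.23 (Peg3) in EpiLCs, and none passed the test of edgeR after adjustment.

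Zdbf2 was the member with the smallest p in ESCs. It was at 127, 127 and 109 CPM with the vehicle and at 135, 135 and 156 CPM with Δ9-THC, so that all 3 exposed libraries were above all 3 vehicle libraries, as they were for 16.7% of genes. The log2(fold-change) was 0.23 (SE 0.080, 95% interval 0.042 to 0.43) with an adjusted p of 0.118 by edgeR, and 20.3% of genes had a smaller p. DESeq2 gave an adjusted p of 0.0417, and the adjusted p ranged from 0.0417 to 0.926 over the 15 alternatives. In EpiLCs Zdbf2 was at 135, 99.2 and 143 CPM with Δ9-THC, overlapping the vehicle libraries, with a log2(fold-change) of 0.18 (SE 0.17). With offsets that take out trends with GC content and length library by library, the value in ESCs was 0.14 with an adjusted p of 0.221. Across all genes, the log2(fold-change) was correlated with GC content (Spearman's rho -0.536 over 13083 genes of ESCs and -0.299 over 13696 genes of EpiLCs, across genes, which are not independent replicates), and the transcript of Zdbf2 had the lowest GC content of the members, 42.3%, where the others ranged from 46.4% to 55.8%. The offsets take out trends with GC content and length together, so they do not give the part of GC content alone. The part of this trend in the value of Zdbf2 was not tested.

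Peg3 had the smallest p in EpiLCs. It was at 318, 328 and 289.9 CPM with the vehicle and at 358, 350.2 and 391.99 CPM with Δ9-THC, all higher, as were those of 11.2% of genes. The log2(fold-change) was 0.23 (SE 0.078, 95% interval 0.049 to 0.42) with an adjusted p of 0.245 by edgeR, and 8.41% of genes had a smaller p. With the GC and length offsets the value was 0.083, with an adjusted p of 0.606, and the adjusted p ranged from 0.0717 to 0.9998 over the 15 alternatives. In ESCs Peg3 was at 173, 162 and 178 CPM with Δ9-THC, overlapping the vehicle libraries, with a log2(fold-change) of 0.053 (SE 0.048).

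Of the maternally expressed members, Meg3 was at 32.3, 37.2 and 27.5 CPM in the exposed ESCs, and only the highest of these was within the range of the vehicle libraries. The log2(fold-change) was -0.33 (SE 0.14, adjusted p = 0.183 by edgeR). In EpiLCs Meg3 was at 265, 438 and 301 CPM with Δ9-THC, all within the range of the vehicle libraries, and its 95% interval ran from -0.82 to 0.59. H19 was at 2.93, 1.81 and 1.55 CPM in the exposed ESCs, with a 95% interval from -0.35 to 1.28, and at 22.8, 26.2 and 23.0 CPM in the exposed EpiLCs, with an interval from -0.34 to 0.081. For H19 in ESCs a difference of a doubling in level could therefore not be told from none with these libraries. Igf2r was at 159, 157 and 181 CPM in the exposed ESCs and at 118, 95.9 and 116 CPM in the exposed EpiLCs, with a log2(fold-change) of -0.11 (SE 0.075) and 0.19 (SE 0.11). Grb10 was at 98.8, 93.1 and 98.0 CPM in the exposed ESCs, with the narrowest interval of all members, -0.12 to 0.063, and at 141, 109.9 and 152 CPM in the exposed EpiLCs. All of these ranges overlapped those of the vehicle.

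Of the other paternally expressed members, Mest was at 24.6, 21.5 and 20.5 CPM in the exposed ESCs, with a log2(fold-change) of -0.19 (SE 0.092, adjusted p = 0.218 by edgeR), and at 86.2, 70.8 and 111 CPM in the exposed EpiLCs, where it was 0.0034 (SE 0.22). Peg10 was at 40.1, 32.1 and 37.0 CPM in the exposed ESCs and at 602, 507 and 470.1 CPM in the exposed EpiLCs, with values of -0.14 (SE 0.10) and 0.034 (SE 0.13). Plagl1 was at 111, 114 and 149 CPM in the exposed ESCs and at 2.73, 1.77 and 2.46 CPM in the exposed EpiLCs, with values of 0.23 (SE 0.16) and 0.032 (SE 0.21). The exposed and vehicle libraries of these 3 genes overlapped in both cell types.

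Whether the effects differed between ESCs and EpiLCs was tested by an interaction term over the 12 libraries. No member passed, where 4 of the 12410 genes (0.0322%) did, and 1 member had an unadjusted p under 0.05 by edgeR, beside 13.7% of genes. That member was Igf2r, with a log2(fold-change) higher in EpiLCs than in ESCs by 0.31 (SE 0.14, adjusted p = 0.342 by edgeR). The difference was 0.20 (SE 0.094) for Peg3 and -0.57 (SE 0.32) for H19, with adjusted p of 0.383 and 0.454 by edgeR. The adjusted p of the other 6 members ranged from 0.510 to 0.957 by the same test.

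Other imprinted genes were counted from lists, to see the members beside other genes listed as imprinted. The parental copy is given as listed, and whether each gene is imprinted in ESCs or EpiLCs was not measured. Of 31 other paternally expressed genes, 20 were measured in ESCs and 25 in EpiLCs. By edgeR's test 0 passed in ESCs, beside 6.91% of all genes, and 0 in EpiLCs, beside 0.0%. At an unadjusted p under 0.05 there were 7 of 20 in ESCs, beside 28.7% of all genes, and 6 of 25 in EpiLCs, beside 15.1%. DESeq2 called 1 in ESCs, beside 5.79% of all genes, and 0 in EpiLCs, beside 0.634%. The gene called by DESeq2 was Kcnq1ot1, the long antisense RNA that silences its neighbours on the paternal copy, at 9.17, 6.86 and 7.59 CPM in the vehicle ESCs and 9.55, 12.5 and 11.7 CPM in the exposed ESCs, without overlap. Its log2(fold-change) was 0.52 (SE 0.14) with an adjusted p of 0.0696 by edgeR. In EpiLCs it averaged 81.3 ± 33.6 CPM in the vehicle group and 64.5 ± 21.4 in the exposed group (SD, n = 3), and its libraries were spread as those of Meg3 were, with vehicle replicate 2 lowest (43.6 CPM) and vehicle replicate 1 highest (108 CPM) in both genes.

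Of 35 other maternally expressed genes, 21 were measured in ESCs, where 2 fell with Δ9-THC by edgeR's test (3.55% of all genes did) and 0 rose (3.37%). In EpiLCs 23 were measured and 0 passed, beside 0.0% of all genes. At an unadjusted p under 0.05 there were 6 of 21 and 5 of 23, where the shares over all genes were 28.7% and 15.1%. DESeq2 called 3 in ESCs (Mirg and Dhcr7 lower, Ube3a higher), beside 5.79% of all genes, and 1 in EpiLCs (Ppp1r9a, higher), beside 0.634%. Mirg was at 4.45, 4.998 and 5.47 CPM in the vehicle ESCs and 3.56, 3.08 and 2.68 CPM in the exposed ESCs, without overlap, with a log2(fold-change) of -0.67 (SE 0.13, adjusted p = 0.0383 by edgeR). Dhcr7, the last enzyme of cholesterol synthesis, fell by 0.18 on the log2 scale (SE 0.028, adjusted p = 0.0301 by edgeR). Rian, which lies between Meg3 and Mirg, was at 119, 124 and 121 CPM with the vehicle and 127, 122 and 126 CPM with Δ9-THC in ESCs. Its log2(fold-change) was 0.043 (SE 0.029). Meg3, Rian and Mirg thus had values of -0.33, 0.043 and -0.67 in ESCs, of which that of Mirg passed the test. Dio3, the paternally expressed gene of the domain measured in ESCs, had -0.14 (SE 0.32, adjusted p = 0.819 by edgeR). With the GC and length offsets, under which 2 genes of the whole table were called, the values were -0.62 for Mirg and -0.13 for Dhcr7, with adjusted p of 0.104 and 0.115 by edgeR. Over 15 alternatives the adjusted p ranged from 0.0202 to 0.926 for Mirg and from 0.0137 to 0.926 for Dhcr7, and the values with 1 of the 6 ESC libraries left out were -0.77 to -0.59 and -0.19 to -0.17. Neither gene was called then, where 0 to 1 genes of the whole table were. In EpiLCs Ppp1r9a, a neighbour of Peg10, had the largest value, 0.55 (SE 0.12, adjusted p = 0.167 by edgeR).

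The factors that keep or reset imprints were measured almost in full, 25 of 26 in ESCs and 26 in EpiLCs. In ESCs 2 of 25 rose and 0 fell by edgeR's test, beside 3.37% and 3.55% of all genes. An unadjusted p under 0.05 was found for 7 of 25, beside 28.7% of all genes, and DESeq2 called 1, Hells, beside 5.79%. Hells, a chromatin remodeller that aids DNA methylation, rose by 0.20 on the log2 scale (SE 0.045, adjusted p = 0.0494), and Arid4b, a chromatin-binding protein linked to imprint control, by 0.15 (SE 0.032, adjusted p = 0.0443, both by edgeR). With the GC and length offsets these values were 0.027 and 0.027, with adjusted p of 0.743 and 0.739 by edgeR. Under these offsets 2 genes of the whole table were called. With 1 of the 6 ESC libraries left out the values were 0.18 to 0.24 for Hells and 0.14 to 0.17 for Arid4b. Neither gene was called then, where 0 to 1 genes of the whole table were. Over 15 alternatives the adjusted p ranged from 0.00851 to 0.979 for Hells and from 0.0442 to 0.984 for Arid4b. The ZFP57 gene, Zfp57, averaged 234 ± 15.5 CPM in vehicle ESCs and 217 ± 14.97 in exposed ESCs, and Trim28 at 1302 ± 33.6 and 1201 ± 26.8 CPM (SD over 3 libraries), the latter with an adjusted p of 0.0750 by edgeR. In EpiLCs 0 of 26 passed edgeR's test, beside 0.0% of all genes, and 9 had an unadjusted p under 0.05, beside 15.1%. DESeq2 called 2 there, Tet2 and Atrx, beside 0.634%. Tet2, a dioxygenase that starts the removal of DNA methylation, had a log2(fold-change) of 0.46 (SE 0.086, adjusted p = 0.144 by edgeR), and Dnmt3l, the cofactor of the methyltransferases that set imprints in germ cells, one of -0.41 (SE 0.10, adjusted p = 0.187 by edgeR). Between the cell types, Dnmt3l was 17.1-fold higher in vehicle EpiLCs, and Zfp57 was 2.42-fold lower.

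**Figure D5:**
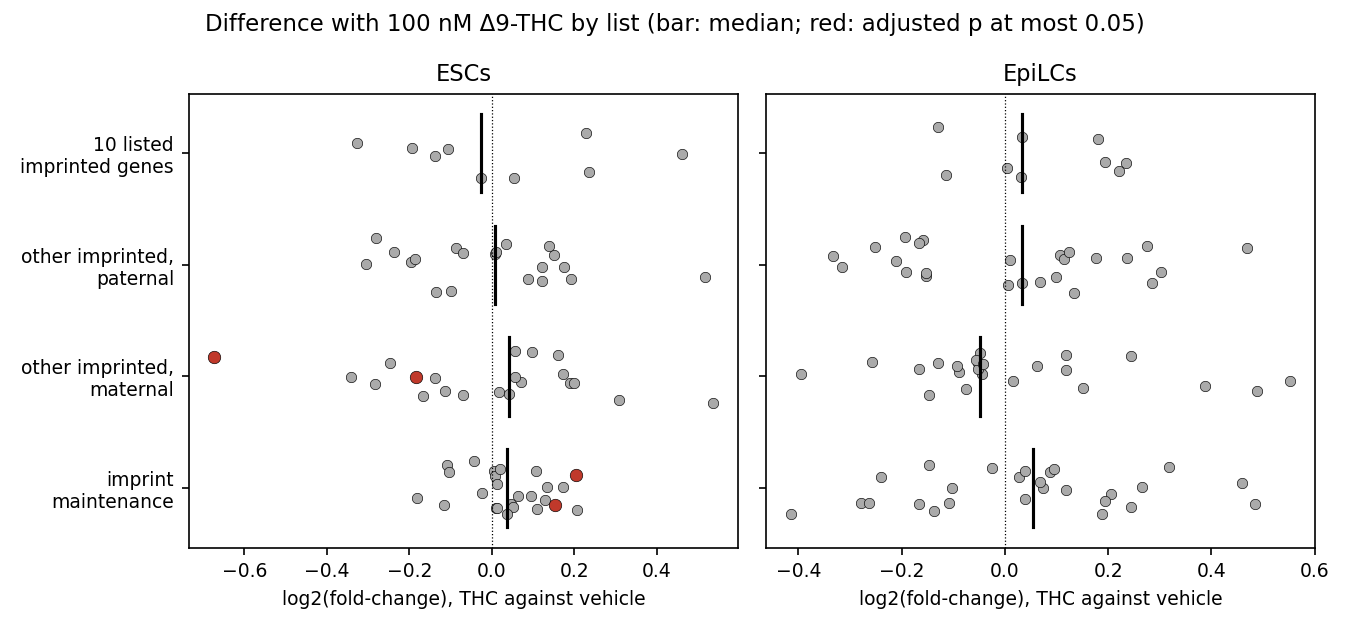
Log2(fold-change) with Δ9-THC against the vehicle of the listed imprinted genes, the other paternally and maternally expressed imprinted genes, and the imprint maintenance factors, in ESCs and EpiLCs; bars are list medians and red points have an adjusted p of at most 0.05 by edgeR. The list medians lie between -0.026 and 0.043 in ESCs and between -0.049 and 0.054 in EpiLCs, and the red points are Mirg, Dhcr7, Hells and Arid4b, in ESCs.

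For each member the gene whose level varied most like its own within the cell types was found by Pearson's r of log2 CPM over the 12 libraries, after the mean of each cell type was subtracted, among 12409 genes. The closest were Rpa3 for H19 (r = 0.966), 2400006E01Rik for Meg3 (0.983), Aldh5a1 for Peg3 (0.990), Fn1 for Igf2r (0.9753), Wdr45b for Mest (0.987), Mcam for Peg10 (0.989), Lrba for Grb10 (0.990), Gm47640 for Plagl1 (0.987) and Ubxn7 for Zdbf2 (0.990). Same-numbered libraries deviate together in opposite directions and are not independent, and each r is the highest of many, so these values are a description. None of these genes is in the imprinted lists.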

How the data were processed

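RNA was measured in 12 libraries of ESCs and EpiLCs, 3 per cell type and exposure. The authors aligned reads with STAR, kept those mapping to a single place, counted exons with HTSeq in union mode without strand, removed genes with low counts, and adjusted the counts with ComBat-seq for batches that are not named. What was deposited, in a table per cell type, is these adjusted counts, all whole numbers. The genome is named both as mm10 and as GRCm39, so the positions printed, from GENCODE M21 (GRCm38), describe genes only. The submitters' notes name bcl2fastq 2.19.1.403. Each column was matched to its library by name, and 0 columns were left over. Libraries of germ cell-like cells were not analysed here. The deposited columns of the authors' own fold changes and p-values were not used.

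Groups were the 4 combinations of cell type and exposure. Each table was fitted with edgeR 4.0.16 (quasi-likelihood, TMM, genes summing to more than 10 counts) in R 4.3.3, adjusted over all genes by Benjamini-Hochberg, with a threshold of 0.05 (DESeq2 1.42.0 as an alternative). Standard errors are those implied by the F statistic, and intervals use its degrees of freedom. CPM were scaled by TMM, and levels per kilobase use the exonic length of GENCODE M21. The interaction was fitted over 12 libraries. Tables and figures were made with pandas 2.3.3 and matplotlib 3.10.9 in Python 3.11.15.

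The members and lists were chosen with earlier results of these data known. Named genes are the members, their imprinted neighbours, the gene most like each member, and in each list the 3 largest rises and falls at an unadjusted p under 0.05, of which the text gives a part. Other genes named were chosen after their values were seen.

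Alternatives were RLE, total counts, the unfiltered table, a minimum of 10 counts in each library and a replicate block. Others were offsets for GC content and length (natural splines, 5 degrees of freedom), the offsets with the block, DESeq2 and all 12 libraries in 1 fit. Each library was also left out. The unfiltered table repeated the main fit, as the smallest total per gene was 82 counts in ESCs and 80 in EpiLCs. On simulated counts with 200 genes changed by a log2(fold-change) of 1, edgeR recovered 94.5% among 13104 genes of ESCs, 92% among 13717 of EpiLCs and 84.5% for the interaction among 12410, with 5.03%, 3.16% and 6.63% of calls false. DESeq2 had 7.35% and 15% of calls false. Recovery of values smaller in size than 1, as those of all members with Δ9-THC were, was not tested. Whether these shares hold for same-numbered libraries that deviate in opposite directions, as the libraries here do, was not tested either.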

Additional observations from a re-analysis of the deposited data

How the results depend on the processing

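The number of genes called in ESCs was 906 (441 higher, 465 lower), and 1332 (197 higher, 1135 lower) when libraries were scaled by total counts. It was 5 with the replicate block, 2 with the GC and length offsets, 3 with both, and 31 with all 12 libraries in 1 fit, and ranged from 0 to 1 when each library was left out. In EpiLCs 0 genes were called, against 87 by DESeq2 and 411 with all 12 libraries in 1 fit. The number of genes with a different effect in the 2 cell types was 4, and 105 with total counts, 0 with the block, 0 with the offsets and 0 with both, and 0 to 0 with each library left out. Members called in ESCs numbered 0, and 1 with DESeq2, and members called in EpiLCs numbered 0 under all 15 alternatives. The offsets for the interaction and a joint TMM for the level ratios were chosen after seeing the data.

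All 18 level ratios kept their direction. Of the log2(fold-change) values, 5 in EpiLCs and 1 in ESCs changed sign, as did 2 interactions. With the offsets, and with the offsets and the block, these were in EpiLCs Mest (-0.016 and -0.016), Peg10 (-0.045 and -0.045) and Plagl1 (-0.071 and -0.075), and with both Zdbf2 (-0.00082), and the interaction of Zdbf2 was 0.021 with total counts. With each library left out, values ranged from -0.043 to 0.00049 for Grb10 in ESCs, and in EpiLCs from -0.37 to 0.076 for Meg3, from -0.19 to 0.15 for Mest, from -0.087 to 0.12 for Peg10 and from -0.11 to 0.19 for Plagl1. The interactions ranged from -0.019 to 0.43 for Meg3 and from -0.13 to 0.10 for Zdbf2. The cause was not tested.

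Deviations from the group means of same-numbered vehicle and exposed libraries had a correlation of -0.984 to -0.973 over genes. Those of differently numbered libraries had a correlation of 0.229 to 0.691. The numbers thus marked which libraries mirrored each other around their group means. The replicate block, which gave 5 genes called in ESCs and 0 in EpiLCs, changed no call of a member, and Mirg, Dhcr7, Hells and Arid4b were not called with it at values of -0.68, -0.18, 0.20 and 0.15. The spread between only 3 libraries per group limited the comparisons, and the effect of the adjustment before deposit on this spread was not tested.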
